A study of Mus musculus with 8 samples.

Results

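The insulin-like growth factor (IGF) genes are 9 of the 19935 genes that could be named on Affymetrix Mouse Gene 1.0 arrays of Adam10 wild-type and knockout mouse skin. They are the ligands Igf1 and Igf2, the receptor Igf1r and 6 binding proteins, Igfbp2 to Igfbp7. The family was chosen by its knockout and wild-type values on these same arrays, and its genes were then found by symbol. Several probe sets of a gene would have been reduced to the brightest, but each of the 9 had 1. The genotypes, with 4 arrays each and 1 array per sample, were Adam10 wildtype and Adam10 knockout, and the titles abbreviate the second as cKO, a usual short form for a conditional knockout. The labels give no strain, sex, age, Cre driver or separate animals, and call the material both mouse skin and primary skin cells. The titles carry a P with a number, which was 57, 58, 59 and 60 on wild-type arrays 1 to 4 and 67, 68, 69 and 55 on knockout arrays 1 to 4, and what it stands for is not stated. The labels name no treatment.

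IGF-1 and IGF-2 are small secreted hormones related to insulin that act through the receptor tyrosine kinase IGF1R, which signals through insulin receptor substrates, PI3 kinase and AKT to growth and survival. In tissue most IGF is held by binding proteins, which keep it from the receptor or deliver it, until proteases cut them. In skin IGF-1 comes mainly from dermal cells and reaches keratinocytes, which carry the receptor. The membrane protease ADAM10, whose gene was deleted, cuts Notch receptors and other surface proteins.

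Adam10 itself read 7.39, 7.33, 7.06 and 7.34 on wild-type arrays 1 to 4 and 6.85, 7.00, 7.04 and 6.79 on knockout arrays 1 to 4 (log2 intensity). All knockout arrays were lower, by 0.36 in the mean (SE 0.11, limma adjusted p = 0.064), and since the labels do not give the deleted part, residual signal from other parts of the gene cannot be judged. Over all genes 1744 passed an adjusted p of 0.05, 1277 higher and 467 lower in the knockout. Keratinocyte markers were bright in both genotypes, with wild-type and knockout means of 12.0 and 12.3 for Krt5 and 12.4 and 12.3 for Krt10. Wild-type array 4, and less so array 3, stood apart in markers of dermis and muscle, so results are also given without them.

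Of the family, the receptor and 2 of the binding proteins were higher on every knockout array than on any wild-type array. Igfbp3 was 5.12-fold higher, Igfbp2 2.77-fold and Igf1r 2.01-fold. The ligands Igf1 and Igf2 and the binding proteins Igfbp4, Igfbp5, Igfbp6 and Igfbp7 overlapped between the genotypes. The 3 that stood apart are also the 3 of 9 that passed an adjusted p of 0.05 in limma, all higher, where 8.75% of all genes passed (6.41% higher and 2.34% lower). Brighter genes passed more often. Of the 8 IGF genes above the median of all values on at least 4 arrays, 3 passed, against 24.2% of all genes so filtered. Over all genes 18.1% did not overlap (12.2% higher and 5.86% lower). The genes were picked with this comparison in view, so these values describe them and are not tested. The median difference was -0.16 over the 9 genes and 0.0027 over all genes on the log2 scale.

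The stretches of DNA before the starts of the 3 higher genes are shown because these genes were high on the same arrays. They are the 250 bases before each start in RefSeq (build GRCm38.p6), 5′ to 3′ on the gene's strand, with matches to the GC box (GGGCGG, either strand) in capitals. Igfbp3 has 1 listed start (chr11:7213924-7214173, minus strand), Igf1r has 1 (chr7:67952007-67952256, plus strand) and Igfbp2 has 2 (chr1:72824230-72824479 and chr1:72825137-72825386, both plus strand).
Igfbp3: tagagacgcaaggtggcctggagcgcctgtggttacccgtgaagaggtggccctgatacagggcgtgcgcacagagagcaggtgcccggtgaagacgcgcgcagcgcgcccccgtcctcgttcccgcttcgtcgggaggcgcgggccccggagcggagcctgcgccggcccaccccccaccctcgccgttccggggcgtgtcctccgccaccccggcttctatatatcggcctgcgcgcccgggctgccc
Igf1r: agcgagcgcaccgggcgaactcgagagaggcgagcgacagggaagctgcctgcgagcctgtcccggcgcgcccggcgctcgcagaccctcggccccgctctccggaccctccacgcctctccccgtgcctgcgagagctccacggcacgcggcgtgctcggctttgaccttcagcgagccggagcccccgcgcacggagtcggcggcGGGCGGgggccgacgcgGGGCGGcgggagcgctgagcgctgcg
Igfbp2 start 1: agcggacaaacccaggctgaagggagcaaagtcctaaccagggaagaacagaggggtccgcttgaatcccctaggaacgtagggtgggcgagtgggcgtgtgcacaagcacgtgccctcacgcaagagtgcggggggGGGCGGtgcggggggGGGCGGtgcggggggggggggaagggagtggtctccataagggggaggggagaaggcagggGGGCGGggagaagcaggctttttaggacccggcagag
Igfbp2 start 2: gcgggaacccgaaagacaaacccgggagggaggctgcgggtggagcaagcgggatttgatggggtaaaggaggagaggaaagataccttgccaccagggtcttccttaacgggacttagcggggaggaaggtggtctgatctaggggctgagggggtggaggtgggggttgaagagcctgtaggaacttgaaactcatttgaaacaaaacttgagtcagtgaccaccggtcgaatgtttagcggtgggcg
The windows were 73.2% G and C for Igfbp3, 77.6% for Igf1r and 67.2% and 56.4% for Igfbp2, against a median of 52.4% over 32817 windows of that length. Igf1r held 2 GC boxes and the first Igfbp2 window 3, while the Igfbp3 window and the second Igfbp2 window held none, and 32.7% of all windows held 1 or more. An AP-1 site (TGANTCA, which reads the same on both strands) was found in the second Igfbp2 window and in 6.75% of all windows. The letters TGGGAA, the core bound by the Notch partner RBPJ, occurred on neither strand in the 4 windows and in 21.6% of all windows. None held TATAAA, which 12.4% did. In the genes that overlapped, the share of G and C was 74% for Igfbp7, 69.2% for Igfbp4 and 58.8% for Igfbp5. It was 52.8% for Igf1, 49.6% for Igfbp6 and 47.6% to 68.8% for the windows of Igf2. A high share was thus not particular to the 3 higher genes. The Igfbp7 window held 4 GC boxes, those of Igf2 0 to 2, and those of Igf1, Igfbp4, Igfbp5 and Igfbp6 0. Among these overlapping genes the AP-1 site was found in the Igf1 window only. TGGGAA occurred in the windows of Igf1 and of Igf2 starts 1 and 2, and TATAAA in those of Igfbp4 and Igfbp6. These are matches of letters only.

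Igfbp3 encodes the main IGF carrier of blood plasma, which is also made in skin. Its probe set 10384223 read 5.12, 5.25, 5.73 and 7.52 on wild-type arrays 1 to 4, and 8.40, 8.38, 8.68 and 7.58 on knockout arrays 1 to 4. Wild-type array 4 and knockout array 4 nearly met, 0.062 apart, while the other 3 arrays of each genotype were far from each other. The wild-type mean was 5.90 ± 1.11 and the knockout mean 8.26 ± 0.47 (SD, n = 4 each), which differ by 2.36 (SE 0.47). It was 2.90 (SE 0.24), or 7.44-fold, without wild-type array 4 and 3.08 (SE 0.25), or 8.43-fold, without wild-type arrays 3 and 4. In rank, Igfbp3 went from the 60.4th percentile of all genes on its lowest array to the 97.5th on its highest.

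Igfbp2 encodes a binding protein with an integrin-binding motif. Probe set 10347277 read 7.61, 7.29, 7.39 and 6.66 in wild type and 8.92, 8.89, 8.68 and 8.35 in knockout. All knockout values were higher, and the closest arrays were 0.74 apart. The difference of means was 1.47 (SE 0.20), from a wild-type mean of 7.24 ± 0.41 to a knockout mean of 8.71 ± 0.26 (SD, n = 4 each). Here wild-type array 4 was the lowest array, the opposite of Igfbp3, and without it the difference was 1.28 (SE 0.15).

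Igf1r encodes the receptor that both IGFs use. Probe set 10554094 read 5.89, 5.59, 5.74 and 5.45 in wild type and 6.69, 6.95, 6.62 and 6.44 in knockout. The groups were 0.56 apart at their closest. The means of 5.67 ± 0.19 and 6.68 ± 0.21 (SD, n = 4) differ by 1.01 (SE 0.13), and the difference ran from 0.82 to 1.09 over the 15 other settings in which it was computed. The spread was similar in both genotypes. Igf1r and Igfbp2 were past the threshold without any 1 array, and Igfbp3 was so except without knockout array 2 or 3. Of all genes, 9.6%, 4.98% and 3.76% passed without wild-type array 1, 2 or 3, and 4.57%, 2.94%, 4.06% and 7.1% without knockout array 1, 2, 3 or 4. The 3 genes also passed after quantile normalization (6.33% of all genes), cyclic loess (6.66%) and median centring (9.07%).

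**Figure D1:**
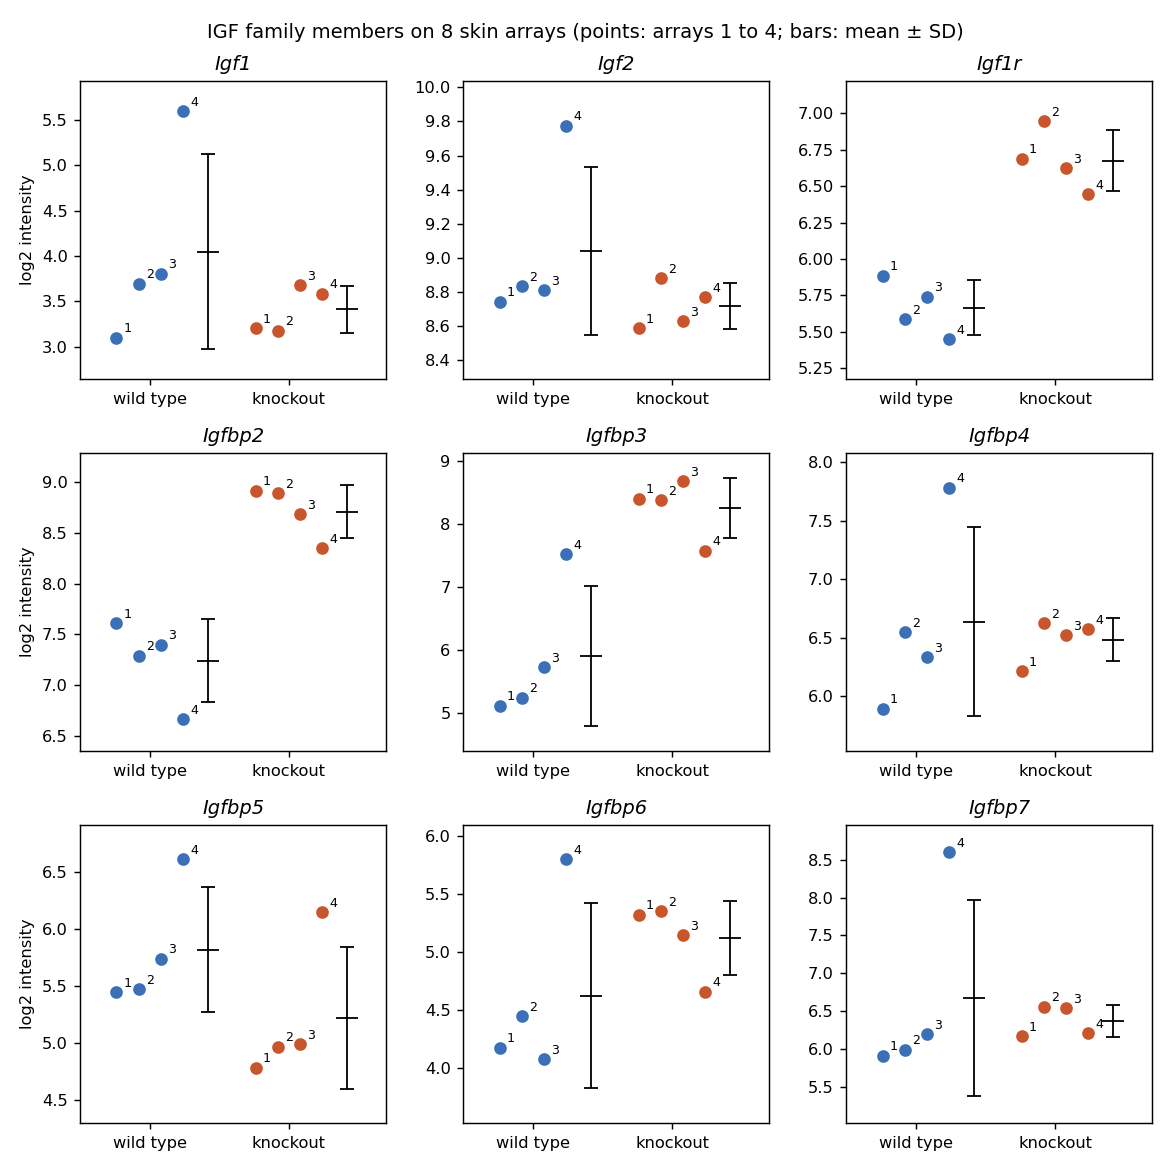
Log2 intensity (vertical axis, its range differing between panels) of each of the 9 genes on 4 wild-type (blue) and 4 knockout (orange) arrays, with the array number beside each point and the mean ± SD at its right. The groups are apart for Igf1r, Igfbp2 and Igfbp3, and wild-type array 4 is the highest wild-type array in 7 of the panels.

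The ligands were higher on 1 wild-type array and overlapped on the rest. Igf1, probe set 10365559, read 3.10, 3.69, 3.80 and 5.60 in wild type and 3.20, 3.18, 3.68 and 3.58 in knockout. Without the high array 4 the genotypes cover the same range, and the difference of -0.64 (SE 0.43) becomes -0.12 (SE 0.19). On the other 7 arrays Igf1 lay below the median gene (4.39 to 4.54), and with no detection calls used here it is not known whether that signal is above background. Igf2, the growth factor of fetal tissues that is imprinted and read from the paternal copy, was bright. Its probe set 10569344 read 8.74, 8.83, 8.81 and 9.78 in wild type and 8.59, 8.88, 8.63 and 8.77 in knockout, at or above percentile 97.2 of genes on all 8 arrays. Array 4 again stood alone, and the difference of -0.32 (SE 0.21) was -0.08 (SE 0.10) without it.

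Igfbp5 and Igfbp6 gave a lower and a higher mean in the knockout, each with an array that crossed over. Igfbp5, a binding protein of connective tissue that attaches to matrix, read 5.45, 5.47, 5.74 and 6.61 in wild type and 4.78, 4.97, 4.99 and 6.14 in knockout (probe set 10355500). Knockout arrays 1 to 3 were lower than all wild-type arrays, while knockout array 4 was above 3 of them. The difference was -0.60 (SE 0.33), and -0.90 (SE 0.26) without knockout array 4. It was -0.33 (SE 0.27) without wild-type array 4 and -0.24 (SE 0.32) without wild-type arrays 3 and 4. Igfbp6, which prefers IGF-2 over IGF-1, read 4.18, 4.45, 4.07 and 5.80 in wild type and 5.32, 5.35, 5.14 and 4.66 in knockout (probe set 10427125). All knockout arrays exceeded wild-type arrays 1 to 3, and wild-type array 4 exceeded them all. The difference of 0.49 (SE 0.34) was 0.89 (SE 0.17) without wild-type array 4. Igfbp6 then passed the threshold, with 4 of the 9 genes past it against 10.0% of all genes. The same 4 passed without wild-type arrays 3 and 4, where 4.64% of all genes did (2.96% higher and 1.68% lower).

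Igfbp4 and Igfbp7 did not keep a direction. Igfbp4, a binding protein that the protease PAPP-A cuts, read 5.89, 6.54, 6.33 and 7.78 in wild type and 6.21, 6.62, 6.52 and 6.57 in knockout (probe set 10381096). Igfbp7, a related protein that binds IGFs weakly and is typical of vessel walls, read 5.91, 5.99, 6.19 and 8.61 in wild type and 6.17, 6.56, 6.54 and 6.20 in knockout (probe set 10530841). Only wild-type array 4 lifted the wild-type means above those of the knockout. The differences were -0.16 (SE 0.33) and -0.31 (SE 0.51), and without that array 0.23 (SE 0.16) and 0.34 (SE 0.13). For Igfbp7 the SD was 1.29 over the wild-type arrays and 0.21 over the knockout arrays.

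**Figure D2:**
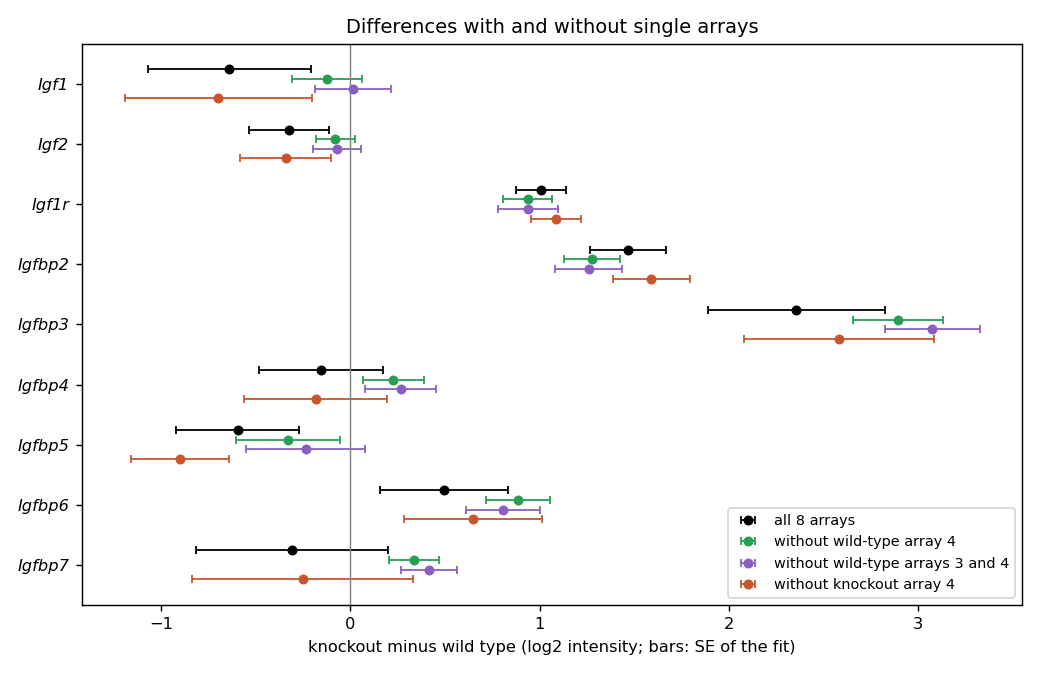
Knockout minus wild type in log2 intensity (horizontal axis, bars are the SE of the fit) for each gene, with all 8 arrays and with the named arrays left out. Igf1r, Igfbp2, Igfbp3 and Igfbp6 stay to the right of 0 in each of the 4 fits drawn, while Igfbp4 and Igfbp7 cross it when wild-type array 4 is left out.

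Wild-type array 4 also stood apart in markers of cells below the epidermis. It was the highest of the 8 arrays for 6 of the 9 IGF genes, against 19.2% of all genes. Against the mean of wild-type arrays 1 to 3 it was higher by 2.57 for Igfbp7, 2.15 for Igfbp3, 2.07 for Igf1, 1.57 for Igfbp6, 1.53 for Igfbp4, 1.06 for Igfbp5 and 0.98 for Igf2. For Igfbp2 (-0.77) and Igf1r (-0.29) it was lower. On the same array the dermal fibroblast list (7 measured of 8) lay 3.52 in the median over the 8-array mean, with 0 members past the threshold, the skeletal muscle list (8 of 8) 3.57, the adipocyte list (8 of 8) 2.61 and the list of blood and lymphatic endothelium (8 of 8) 2.04. Wild-type array 3 was the next highest for the dermal (1.66) and muscle (1.13) lists. In RNA from mixed cells, more cells of a type and more RNA per cell cannot be told apart.

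Summed over the dermal list, intensities ran from 769 to 7195 in wild type and from 1021 to 1103 in knockout. Most of the knockout sum was Dcn, with a knockout mean of 9.70 against 9.22 in wild type (difference 0.48, SE 0.21, adjusted p = 0.18). The other measured members had lower means in the knockout. Igfbp3 was high on knockout arrays whose dermal list lay at a median of -1.05 to -0.83. On wild-type arrays 1 and 2, where Igfbp3 was lowest, that list lay at -0.90 and -0.62. The basal keratinocyte list (8 of 8 measured, 7 of them past the threshold and higher) ran the other way. Its summed intensity was 7674 to 10395 in wild type and 12950 to 14636 in knockout, with medians of -0.74 to -0.19 and 0.28 to 0.48. Its median difference was 0.72, and 0.54 without wild-type arrays 3 and 4, beside 1.01 for Igf1r and 1.47 for Igfbp2. The suprabasal list (5 of 8) differed by a median of -0.07. The dermal papilla list (8 of 8, 1 higher and 1 lower past the threshold) spanned -0.26 to 0.46 over all arrays and the smooth muscle and pericyte list (8 of 8, 1 lower) -0.29 to 0.91, both highest on wild-type array 4. The macrophage list (8 of 8, 4 past the threshold and lower) was lower on all knockout arrays (-0.70 to -0.15 against 0.25 to 0.94) and the melanocyte list (6 of 6, 3 past and higher) was higher (0.02 to 0.73 against -0.56 to -0.17). The sebocyte list (5 of 6, 2 past and lower) had medians of -0.42 to -0.05 in knockout and 0.05 to 0.42 in wild type. Beside the counts of these lists, 6.41% of all genes were past the threshold and higher and 2.34% past it and lower. The part of any of these cell types in the IGF values was not tested.

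**Figure D3:**
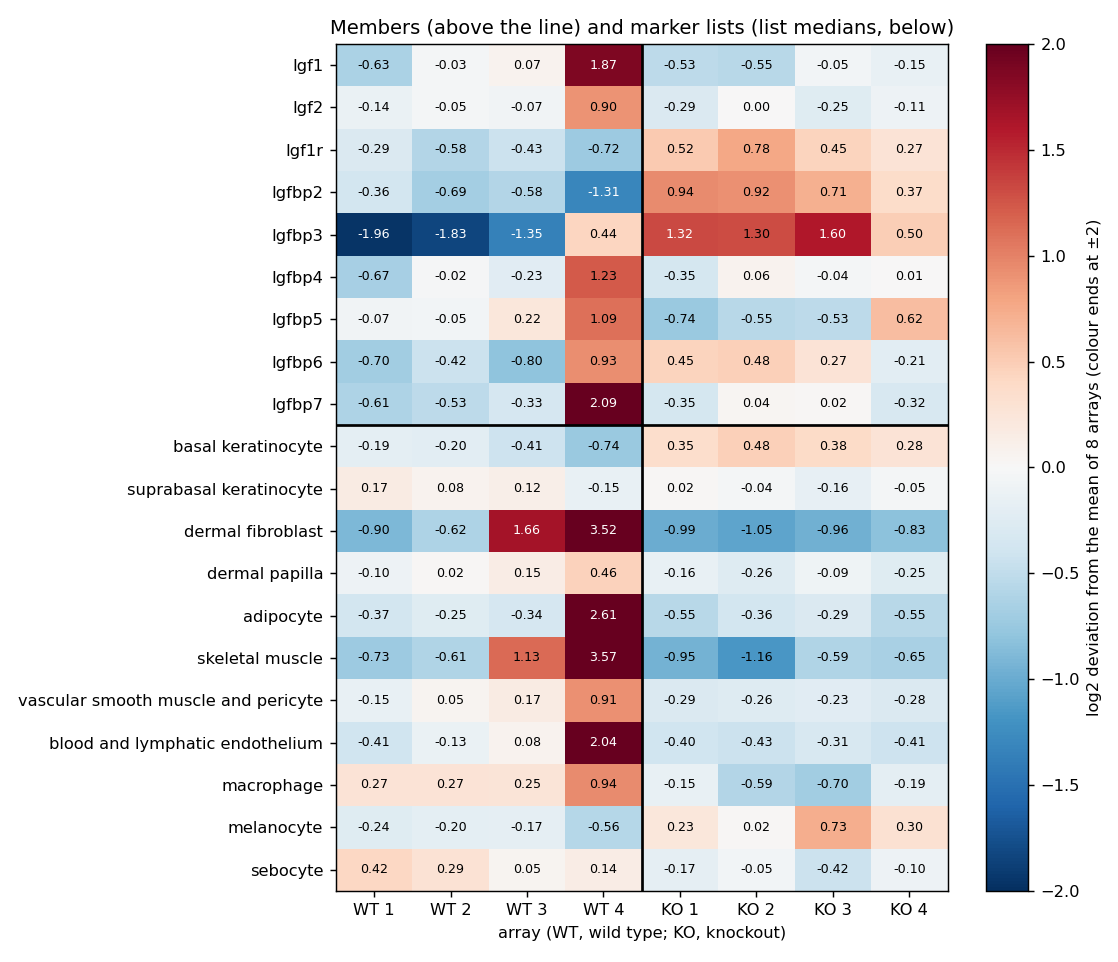
Log2 deviation of each of the 9 genes (above the line) and of each marker list's median (below it) from the mean of the 8 arrays, by array, with colour from blue (lower) to red (higher) and the value printed. Wild-type array 4 is red for most of the genes and for the dermal, muscle, fat and vessel lists. Igf1r, Igfbp2 and the basal keratinocyte and melanocyte lists are below 0 on all wild-type arrays and above 0 on all knockout arrays.

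The genes most like each IGF gene over the 8 arrays, by Pearson's r of log2 values among 9738 named genes of at least median level, fell into the same groups. For Igf1r they were Sgk3, a kinase activated through PI3 kinase (r = 0.994), the cytoskeletal protein gene Pdlim1 (0.992) and the kinase gene Mark3 (0.991). For Igfbp2 they were Cast, an inhibitor of calpain proteases (0.996), the cell division phosphatase Cdc25c (0.995) and Myof (0.994). For Igfbp3 they were Maea (0.989), Dgkd (0.987) and Rsu1 (0.986). For Igf1 (Atp5o, Egfl7 and Col5a1, 0.981 to 0.995), Igf2 (Sdha, Eci1 and Ccng1, 0.991 to 0.994), Igfbp4 (Gpx4, Glipr2 and Tspo, 0.977 to 0.980), Igfbp5 (Grcc10, Hsp90b1 and Mdh1, 0.971 to 0.983), Igfbp6 (Rn7sk, Tmem64 and Septin11, 0.954 to 0.972) and Igfbp7 (Stx2, Fermt2 and Plpp3, 0.985 to 0.989), each named gene had its highest value on wild-type array 4. These correlations describe 8 arrays that share genotype and that array, and carry no test.

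The other genes of the axis were read from 8 lists of 94 genes, of which 87 were measured. Among them 12 rose and 5 fell in the knockout (19.5%, against 8.75% of all genes), and their median difference was -0.03 against 0.0027 for all genes. Of the 63 that lay above the median of all values on at least 4 arrays 31.7% passed, against 24.2% of all genes so filtered. In the first list, of 9 measured other ligands, receptors and carriers, 0 rose and 1 fell (11.1%), with a median of -0.03. It was Lrp1, an endocytic receptor for many ligands, which fell by 0.61 (SE 0.16, adjusted p = 0.040), and it lost its call in 5 of the 8 fits without 1 array, without wild-type arrays 3 and 4 (adjusted p = 0.083) and after median centring (adjusted p = 0.058). The insulin receptor gene Insr differed by 0.32 (SE 0.11, adjusted p = 0.11) and the IGF-2 scavenger Igf2r by 0.05 (SE 0.13, adjusted p = 0.85). Igfbp1, the remaining classical binding protein, was dim, with a wild-type mean of 3.57 and a knockout mean of 3.42 (SE of the difference 0.18, adjusted p = 0.64).

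In the growth hormone axis, which drives Igf1 in liver, 1 of 6 measured genes rose and 1 fell (33.3%, against 8.75% of all genes). With dim genes left out 1 again rose and 1 fell, where 24.2% of all genes passed. Socs2, a suppressor of growth hormone signalling, read 6.51, 5.47, 5.72 and 5.18 in wild type and 4.51, 4.34, 4.23 and 4.67 in knockout. The groups did not overlap, and it fell by 1.28 (SE 0.24, adjusted p = 0.012) and passed in each of the 8 fits without 1 array. Jak2, the kinase bound to the hormone's receptor, rose by 0.54 (SE 0.12, adjusted p = 0.019), which no longer passed when wild-type array 3 or knockout array 1 or 2 was left out, or after quantile or cyclic loess normalization. The receptor Ghr differed by -0.49 (SE 0.22, adjusted p = 0.19). The list's median was -0.20.

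Of 14 proteases that cut binding proteins and inhibitors of those proteases, 2 rose and 1 fell (21.4%, against 8.75% of all genes). Their median was -0.08. With dim genes left out 2 rose and 0 fell, where 24.2% of all genes passed. The membrane metalloproteinase Mmp14 rose by 0.64 (SE 0.12, adjusted p = 0.012) and the secreted protease Htra1 by 0.49 (SE 0.12, adjusted p = 0.028). Pappa2, a protease of Igfbp3 and Igfbp5, fell by 0.84 (SE 0.21, adjusted p = 0.035) and was dim, its means being 3.55 and 2.71. Mmp14 missed the threshold when knockout array 2 was left out and after cyclic loess, and Htra1 did so in 6 of the 8 fits without 1 array and after quantile or cyclic loess normalization. Pappa2 missed it in 5 of those 8 fits, with the mean of all its probe sets, on the log2(value + 16) scale, and without wild-type arrays 3 and 4 (adjusted p = 0.10). The stanniocalcin gene Stc2, whose product blocks PAPP-A, differed by -0.60 (SE 0.18, adjusted p = 0.063), and Pappa itself by -0.07 (SE 0.13, adjusted p = 0.79).

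Downstream of the receptor, 5 of 27 measured genes rose and 1 fell, which is 22.2% past the threshold against 8.75% of all genes. The list's median was 0.23, and 21 of 27 differences were above 0. Of the 27 genes 26 were at or above the median gene in mean level, and among all genes that bright the median difference was 0.11 and 65.4% of differences were above 0, against 50.4% over all genes. Irs2, an adaptor of the insulin and IGF receptors, rose by 0.56 (SE 0.13, adjusted p = 0.028), the PI3 kinase subunit Pik3cb by 0.58 (SE 0.13, adjusted p = 0.026) and the transcription factor Foxo1 by 0.46 (SE 0.12, adjusted p = 0.048). Eif4ebp1, a brake on translation that mTOR releases, fell by 0.53 (SE 0.14, adjusted p = 0.043), and lost its call in 7 of the 8 fits without 1 array and after median centring (adjusted p = 0.069). The other rises, named after their values were seen, were Akt1 (0.44, SE 0.09, adjusted p = 0.016) and Pik3ca (0.33, SE 0.08, adjusted p = 0.039). Akt1 read 7.91, 8.02, 7.94 and 8.01 in wild type and 8.37, 8.52, 8.42 and 8.31 in knockout. Of the 8 fits without 1 array, Pik3ca lost its call in all 8, Foxo1 in 7, Irs2 in 4, Pik3cb in 3 and Akt1 in 2. The count of rises went from 5 to 0 after quantile normalization or cyclic loess, without knockout array 2, and without wild-type arrays 3 and 4, and the list's median to 0.12 and 0.10 under those normalizations. Without wild-type array 2 it was 3, without wild-type array 3 it was 1, and without knockout array 1, 3 or 4 it was 2. Without wild-type array 1 it was again 5, but with Irs1 and Rheb in place of Foxo1 and Pik3ca. The count was 4 without wild-type array 4, 6 after median centring or with averaged probe sets, and 7 with log2(value + 16) or the trended and robust prior. Leaving out dim genes gave 9, where 24.2% of all genes passed. Calls over all genes moved too, to 6.33% after quantile normalization, 6.66% after cyclic loess, 2.94% without knockout array 2 and 4.64% without wild-type arrays 3 and 4. Among 12 FoxO target genes, which this signalling normally silences, Ccng2 rose by 0.57 (SE 0.12, adjusted p = 0.021) and 0 fell, so that 8.33% passed, near the 8.75% of all genes, and the median was 0.18. Ccng2 missed the threshold when wild-type array 3 or knockout array 2 or 3 was left out, and without wild-type arrays 3 and 4 (adjusted p = 0.12).

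Of 10 genes for secreted or membrane proteins with an IGFBP-like domain or relation, 3 rose and 0 fell (30%, against 8.75% of all genes). The list's median was -0.19. With dim genes left out 3 again rose and 0 fell, where 24.2% of all genes passed. Ccn1, a matrix protein induced by growth factors, read 7.11, 6.85, 7.16 and 7.12 in wild type and 8.35, 7.89, 8.21 and 8.85 in knockout. It rose by 1.26 (SE 0.18, adjusted p = 0.0043). Crim1, a membrane protein that binds BMPs, spanned 6.84 to 7.25 over the wild-type arrays and 7.71 to 8.22 over the knockout arrays, and rose by 0.87 (SE 0.13, adjusted p = 0.0052). For both the groups did not overlap, and both passed in each of the 8 fits without 1 array. Ccn2, connective tissue growth factor, rose by 0.48 (SE 0.12, adjusted p = 0.033) and lost its call in 6 of those fits, after quantile or cyclic loess normalization, and without wild-type arrays 3 and 4.

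Among 7 measured imprinted genes often expressed together with Igf2, 0 rose and 1 fell (14.3%, against 8.75% of all genes). Their median was -0.93, and -0.11 without wild-type arrays 3 and 4. Plagl1, a zinc finger factor known to act on Igf2, read 6.55, 6.31, 6.62 and 7.26 in wild type and 5.67, 5.54, 5.27 and 5.45 in knockout. It fell by 1.20 (SE 0.18, adjusted p = 0.0054), with no overlap, and passed in each of the 8 fits without 1 array. Mest read 4.34, 4.23, 6.77 and 9.94 in wild type and 3.59, 3.38, 4.04 and 3.80 in knockout (adjusted p = 0.15). It was high on wild-type arrays 3 and 4 like the dermal list, as was Dlk1, at 7.79 and 10.32 there. The groups did not overlap for Mest, and they did for Dlk1. Without wild-type arrays 3 and 4 Mest still differed by -0.59 (adjusted p = 0.092) and Dlk1 by -0.11 (adjusted p = 0.82). Peg3, at 6.49, 6.51, 6.73 and 7.54 in wild type and 7.07, 7.38, 7.21 and 7.30 in knockout, did not pass with all arrays (adjusted p = 0.24) and rose when wild-type array 4 was left out. Both measured Igf2 mRNA-binding proteins missed the threshold, and Igf2bp3 differed by 0.36 (SE 0.14, adjusted p = 0.13).

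**Figure D4:**
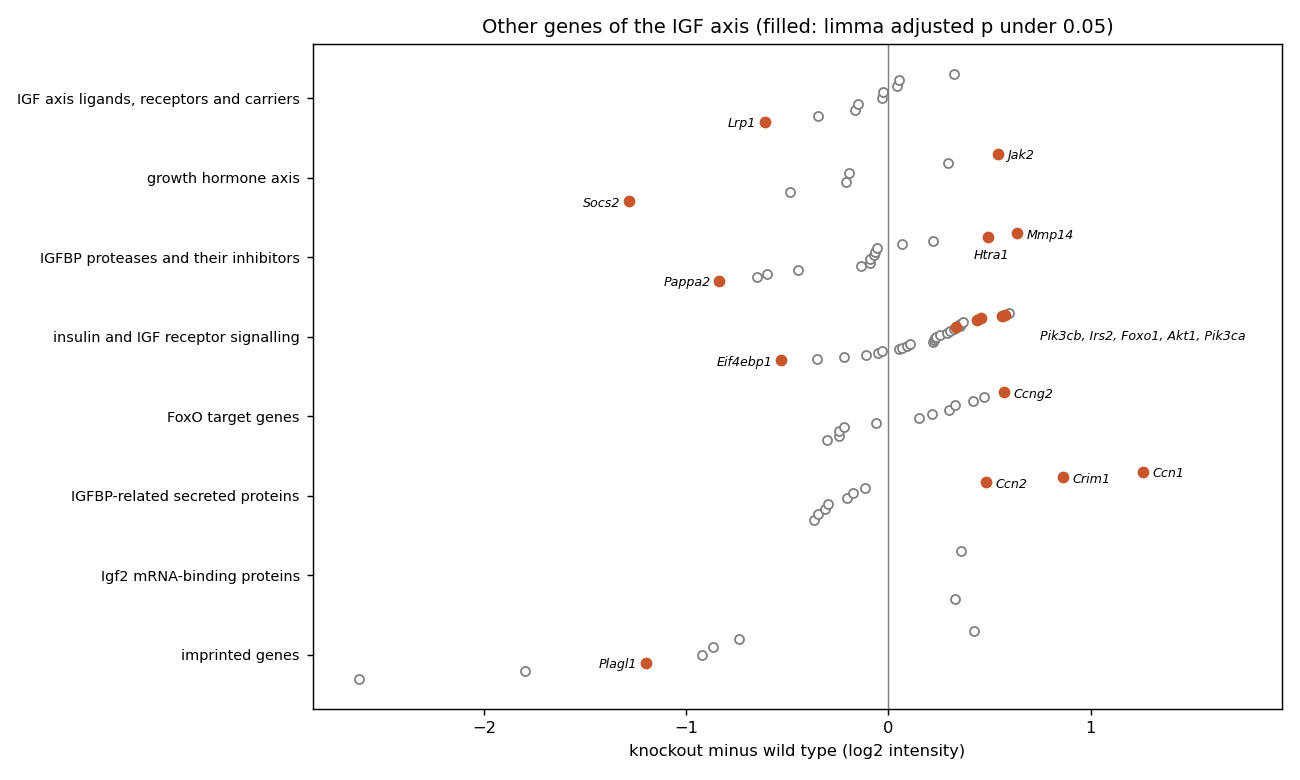
Knockout minus wild type in log2 intensity (horizontal axis) for the 87 other genes of the axis, 1 point per gene and list. Filled, named points passed an adjusted p of 0.05 in limma, 12 to the right of 0 and 5 to the left, with Ccn1 farthest right and Socs2 farthest left among them.

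Several binding protein genes lie side by side or next to a tensin gene in the RefSeq order of coding genes, which let neighbours be set beside each other. These pairs were looked at after the values were seen. Igfbp2 (1.47) and Igfbp5 (-0.60) are adjacent, and so are Igfbp3 (2.36) and Igfbp1 (-0.15), so in both pairs the higher gene had a neighbour that was not higher. Tns3, on the other side of Igfbp3, differed by 0.01 (SE 0.09, adjusted p = 0.96). Tns4, which follows Igfbp4 and encodes a tensin of epithelia, read 6.43, 6.76, 6.50 and 5.89 in wild type and 7.12, 7.29, 7.20 and 6.72 in knockout (difference 0.69, SE 0.19, adjusted p = 0.0497). The groups overlap, since knockout array 4 lies below wild-type array 2. Tns1, near Igfbp5, differed by -0.52 (SE 0.22, adjusted p = 0.17) and Tns2, near Igfbp6, by 0.19 (SE 0.12, adjusted p = 0.35). Beside Igf2, the insulin gene Ins2 was dim and differed by -0.03 (SE 0.11, adjusted p = 0.91).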

How the data were processed

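RNA of samples labelled both mouse skin and primary skin cells was measured on 8 arrays, 4 per genotype, grouped by the genotype label. Each deposited number is the intensity of a probe set, which the authors made with RMA per the submitters' processing notes. Its version and settings, and any build, were not given in the sources used here. Values ran from 0.817 to 11173, so they were read as linear and log2 was taken with no pseudocount. Of 35519 probe sets 21780 had exactly 1 gene symbol in the platform annotation, 1605 several and 12134 none. Through Entrez identifiers 21689 matched RefSeq genes (GRCm38.p6) and 0 symbols changed. The brightest probe set of each gene was kept, which left 19935 genes.

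The genotypes were tested against each other in limma 3.58.1 under R 4.3.3 (linear model with moderated variances, two-sided, Benjamini-Hochberg over all genes, threshold 0.05). The labels do not say that samples came from separate animals, so p-values measure the spread between these samples, and the number of arrays limits the precision. On simulated data with 19935 genes the fit recovered 30% of changes of 0.5, 86% of 1, 100% of 2 and 98% of 3 (log2), with 9 false calls. The simulated noise was independent between genes, with the same SD in both genotypes. On the real arrays wild-type array 4 moved many genes together, so these shares may not hold for them. The IGF genes, the lists and the tests were chosen with earlier results of these data known. Named by rule were all 9 IGF genes, Adam10, up to 3 rises and 3 falls per list (or the smallest p) and the 3 genes most correlated with each IGF gene. Outside this rule were Akt1, Pik3ca, Insr, Igf2r, Igfbp1, Ghr, Stc2, Pappa, Mest, Dlk1, Peg3, Irs1, Rheb, the neighbouring genes and the single marker genes. Alternatives were quantile, median and cyclic loess normalization, leaving out dim genes, averaging a gene's probe sets, log2(value + 16), a trended and robust prior, and leaving out arrays. Promoter windows came from a RefSeq table.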

Additional observations from a re-analysis of the deposited data

Results flagged for a closer look

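Over 50 groups of 4 arrays, from the 9 IGF genes and the named genes of the lists, 4 held an array far from the other 3 by Dixon's criterion, where chance gives about 1 in 20. Igf2 read 9.78 on wild-type array 4 and 8.74 to 8.83 on the other wild-type arrays. Igfbp7 read 8.61 on the same array and 5.91 to 6.19 on the others. Igfbp5 read 6.14 on knockout array 4 and 4.78 to 4.99 on the other knockout arrays. Ccn1 read 6.85 on wild-type array 2 and 7.11 to 7.16 on the others.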

How the results depend on the processing

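Igf1r, Igfbp2, Igfbp3 and Igfbp6 stayed higher and Igf2 and Igfbp5 lower in the knockout in each of the 15 alternatives computed for them. Over the fits without 1 array the difference of Igfbp4 ran from -0.40 to 0.23 and that of Igfbp7 from -0.56 to 0.34, both positive only without wild-type array 4. Without both wild-type arrays 3 and 4 that of Igf1 turned to 0.013, of Igfbp4 to 0.27 and of Igfbp7 to 0.42. The filter on dim genes left out Igf1. The number of IGF genes past the threshold was 3, and 2 to 4 without 1 array. Igfbp3 was not past it without knockout array 2 or 3. Genes past the threshold numbered 587 to 1997 without 1 array (992 and 750 without wild-type array 2 or 3, 911, 587 and 809 without knockout array 1, 2 or 3) and 925 when wild-type arrays 3 and 4 were left out together. Of the genes of the lists, 17 passed, and 9 did after quantile normalization, 8 after cyclic loess, 4 to 17 without 1 array (11 and 7 without wild-type array 2 or 3, 9, 4, 8 and 10 without knockout array 1, 2, 3 or 4) and 11 when wild-type arrays 3 and 4 were left out together. The number from the lists was 20 without dim genes, 19 with log2(value + 16) or the trended and robust prior, 17 with averaged probe sets and 16 after median centring. Among all genes called, 73.2% were higher in the knockout, a share of 56.5% with quantile normalization, 50.8% with cyclic loess and 81.4% with median centring. The causes were not tested. No paired analysis was possible because the labels give the genotypes no shared replicate numbers. No scan dates or detection calls were used, so batches and signal over background were not tested.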
